A study of Mus musculus with 20 samples.

Results

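The 10 genes followed here are known to be induced by glucocorticoids, and were read through the cell types of the mouse basolateral amygdala (BLA): Fkbp5, Tsc22d3, Sgk1, Zbtb16, Klf9, Nfkbia, Errfi1, Ddit4, Pdk4 and Sult1a1. They were taken by symbol from the 31053 genes of the deposited feature tables, and all 10 of them were present once. BLA cells of 10 male wild-type C57BL/6 mice aged 13 weeks were profiled by droplet single-cell RNA sequencing, with 1 library per mouse. Mice drank corticosterone (CORT, 35 µg/ml) or its vehicle 2-hydroxypropyl cyclodextrin (BCD) for 6 weeks and received ketamine (Ket, 10 mg/kg, i.p.) or saline (Sal) 24 h before tissue collection. This gave 2 BCD/Sal, 3 BCD/Ket, 2 CORT/Sal and 3 CORT/Ket mice. Levels are given as counts of unique molecular identifiers (UMIs) summed over the cells of a class in a mouse and scaled to 1000000 UMIs of that class in that mouse (CPM). The hour of collection was not given in the sources used here.

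Corticosterone is the main glucocorticoid of rodents. It binds the glucocorticoid receptor (Nr3c1), which moves to the nucleus and acts on DNA at the glucocorticoid response element (GRE), a pair of inverted hexamers held apart by a short spacer. Its adrenal release follows the day. The target gene Fkbp5 serves as feedback, since it encodes a co-chaperone that lowers the receptor's affinity for hormone. Nfkbia encodes the inhibitor that holds NF-kB in the cytoplasm. In the brain, endothelial cells, pericytes and glia are known to respond to the hormone along with neurons.

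Promoter windows of RefSeq (GRCm38.p6), which run from 250 bases before to 50 bases after an annotated start, were found for 9 of the 10 genes, 17 windows in all. Zbtb16 had no entry. The full GRE (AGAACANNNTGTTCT, searched on both strands) was in 3 of 32851 windows of the whole table, or 0.0091%, and 1 of these was a window of Sgk1. The relaxed form GNACANNNTGTNC, which overlaps the full form, was in 0.475% of all windows and among the 17 only in that same Sgk1 window. The single hexamer TGTTCT, which is part of the full form but not of the relaxed form, was in 19.0% of all windows and in 5 of the 17, belonging to Sgk1, Sult1a1 and Tsc22d3. Windows are shown for the genes on which the results below turn, Tsc22d3 with all 3 of its starts, Ddit4, and the Sgk1 start that holds the full element, each written 5′ to 3′ on the gene's strand with GRE letters in capitals.
Tsc22d3, chrX:140542619-140542918, minus strand: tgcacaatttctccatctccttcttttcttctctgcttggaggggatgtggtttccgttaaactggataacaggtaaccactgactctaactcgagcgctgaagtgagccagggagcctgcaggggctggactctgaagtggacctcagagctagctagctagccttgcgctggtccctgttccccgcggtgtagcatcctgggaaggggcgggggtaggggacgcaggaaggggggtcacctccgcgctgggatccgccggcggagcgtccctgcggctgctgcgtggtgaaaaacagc
Tsc22d3, chrX:140600473-140600772, minus strand: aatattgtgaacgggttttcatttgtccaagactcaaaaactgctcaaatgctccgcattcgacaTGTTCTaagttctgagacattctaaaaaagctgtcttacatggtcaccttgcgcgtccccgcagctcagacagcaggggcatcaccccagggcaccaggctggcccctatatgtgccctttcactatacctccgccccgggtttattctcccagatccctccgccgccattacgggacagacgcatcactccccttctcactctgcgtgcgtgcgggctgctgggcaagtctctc
Tsc22d3, chrX:140548522-140548821, minus strand: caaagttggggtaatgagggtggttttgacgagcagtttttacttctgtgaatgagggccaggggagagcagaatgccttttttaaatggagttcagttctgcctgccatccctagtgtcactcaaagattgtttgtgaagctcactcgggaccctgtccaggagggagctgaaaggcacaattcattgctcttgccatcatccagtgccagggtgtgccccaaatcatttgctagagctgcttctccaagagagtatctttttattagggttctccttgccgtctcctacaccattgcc
Ddit4, chr10:59951721-59952020, minus strand: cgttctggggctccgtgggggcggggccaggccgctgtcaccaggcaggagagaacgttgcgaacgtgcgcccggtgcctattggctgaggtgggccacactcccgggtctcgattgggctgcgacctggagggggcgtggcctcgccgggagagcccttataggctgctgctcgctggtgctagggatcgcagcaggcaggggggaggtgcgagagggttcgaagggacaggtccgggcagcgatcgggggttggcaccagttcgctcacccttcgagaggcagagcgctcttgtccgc
Sgk1, chr10:21993640-21993939, plus strand: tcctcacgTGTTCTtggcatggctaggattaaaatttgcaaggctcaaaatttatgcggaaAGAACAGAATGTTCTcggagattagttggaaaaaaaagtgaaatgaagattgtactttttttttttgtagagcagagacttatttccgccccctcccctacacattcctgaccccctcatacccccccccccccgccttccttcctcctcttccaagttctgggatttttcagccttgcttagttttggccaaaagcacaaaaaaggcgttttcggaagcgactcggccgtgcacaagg
The full element of Sgk1 runs from base -189 to base -175 counted from the annotated start, and the Tsc22d3 hexamer from -185 to -180. Ddit4 and the other 2 Tsc22d3 windows hold none of these letters in this stretch. On NCBIM37, the mouse build also called mm9 that the study names, the gene bodies lie at chrX:137074067-137135198 for Tsc22d3, chr10:59412423-59414518 for Ddit4 and chr10:21601990-21719709 for Sgk1. The others lie at chr17:28536040-28654469 (Fkbp5), chr9:48462416-48644050 (Zbtb16), chr19:23215716-23241401 (Klf9), chr12:56590398-56593634 (Nfkbia), chr4:150228028-150243001 (Errfi1), chr6:5433351-5446309 (Pdk4) and chr7:133816379-133819946 (Sult1a1).

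Of 28722 barcodes, 8305 passed the limits on mitochondrial UMIs and on genes detected (at least 200), and 5088 of these fell in clusters that markers could name. Libraries held 135 to 2397 kept barcodes and 287013 to 3680877 UMIs in them. The library of CORT/Sal mouse 9970 stood apart, with a median mitochondrial share of 3.22% against 33.2% to 57.9% in the others, and 2356 of its 2397 kept barcodes fell in unnamed clusters. It gave 11 endothelial cells with 3411 UMIs, so that 3 UMIs there equal 880 CPM. CORT/Ket mouse 9967 gave 30 endothelial cells with 18197 UMIs, where the same 3 UMIs equal 165 CPM. Zeros in these 2 libraries therefore say little, and results are given with and without them where they matter. Kept barcode sequences found in more than 1 library numbered 21, at most 10 of them for any pair of libraries. The endothelial class bore its own markers at 21988 to 32001 CPM summed over 13 genes, against 445 to 2067 CPM for 12 pericyte and smooth muscle markers and 0 to 1297 CPM for 12 astrocyte markers. Red blood cell markers (5 genes) ranged widely in the same cells, from 0 to 31287 CPM in BCD and from 55.0 to 13340 CPM in CORT mice, and their part in the results was not tested.

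The 10 genes were led by different cell types. Nfkbia was highest in endothelial cells (627 ± 214 CPM, SD, n = 10 mice) and next in pericytes and smooth muscle cells (255 ± 136, n = 7). It was higher in endothelial cells in 7 of 7 mice that held both classes (exact paired permutation test, two-sided p = 0.0156, adjusted p = 0.137 over 70 neighbouring pairs). Tsc22d3, which encodes the glucocorticoid-induced leucine zipper, was likewise highest in endothelial cells (189 ± 158, n = 10), followed by pericytes (134 ± 101, n = 7), and again higher in 7 of 7 mice (exact permutation adjusted p = 0.137). The lead in the means was seen in BCD mice only: endothelial cells averaged 324 CPM in BCD and 54.0 CPM in CORT mice. CORT means of astrocytes (89.8), oligodendrocytes (70.7) and pericytes (68.2) were higher, but the endothelial one includes zeros of the shallow libraries 9970 and 9967. Within each CORT mouse that held both classes, endothelial cells still lay above pericytes. On log2(CPM + 10) astrocytes led over all mice. Klf9, a zinc finger transcription factor, stood close together in pericytes (280 ± 96.9), endothelial cells (262 ± 138) and astrocytes (252 ± 62.6). The order of the first 2 is not settled: within a mouse, pericytes were higher in 1 of 7 (exact permutation p = 0.0781, adjusted p = 0.260), and with mouse 9970 left out endothelial cells led. Endothelial cells were above astrocytes in 6 of 7 mice (exact permutation p = 0.0469, adjusted p = 0.173). None of the 70 neighbouring pairs passed the adjustment, for which the lowest value reached was 0.137, and pairs of 6 or 7 mice cannot give an unadjusted p below 0.0313 or 0.0156.

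Ddit4 encodes an inhibitor of mTORC1 and was also highest in endothelial cells (115 ± 84.1 CPM, n = 10), ahead of astrocytes (70.8 ± 45.4, n = 7). Errfi1, an inhibitor of the EGF receptor, was at 66.6 ± 85.0 CPM in endothelial cells and 64.8 ± 48.2 in oligodendrocytes. The endothelial mean of Errfi1 rests on 1 UMI in mouse 9970 (293 CPM), and oligodendrocytes lead without that library. Sgk1, a kinase of ion and glucose transport, was highest in oligodendrocytes (574 ± 634 CPM, n = 8), then endothelial cells (209 ± 107, n = 10) and microglia (185 ± 53.2, n = 6). The order of oligodendrocytes and endothelial cells held in 6 of 8 mice (exact permutation p = 0.164, adjusted p = 0.425). It turned in CORT mice 9969 and 9968 and held in CORT mouse 9971. Oligodendrocytes averaged 108 CPM in CORT mice (854 in BCD mice), below the means of endothelial cells (205) and microglia (142). That endothelial mean includes 293 CPM, or 1 UMI, in mouse 9970. Astrocytes, by contrast, held Sgk1 at 1.99 CPM, or 7 UMIs over 7 mice.

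**Figure D1:**
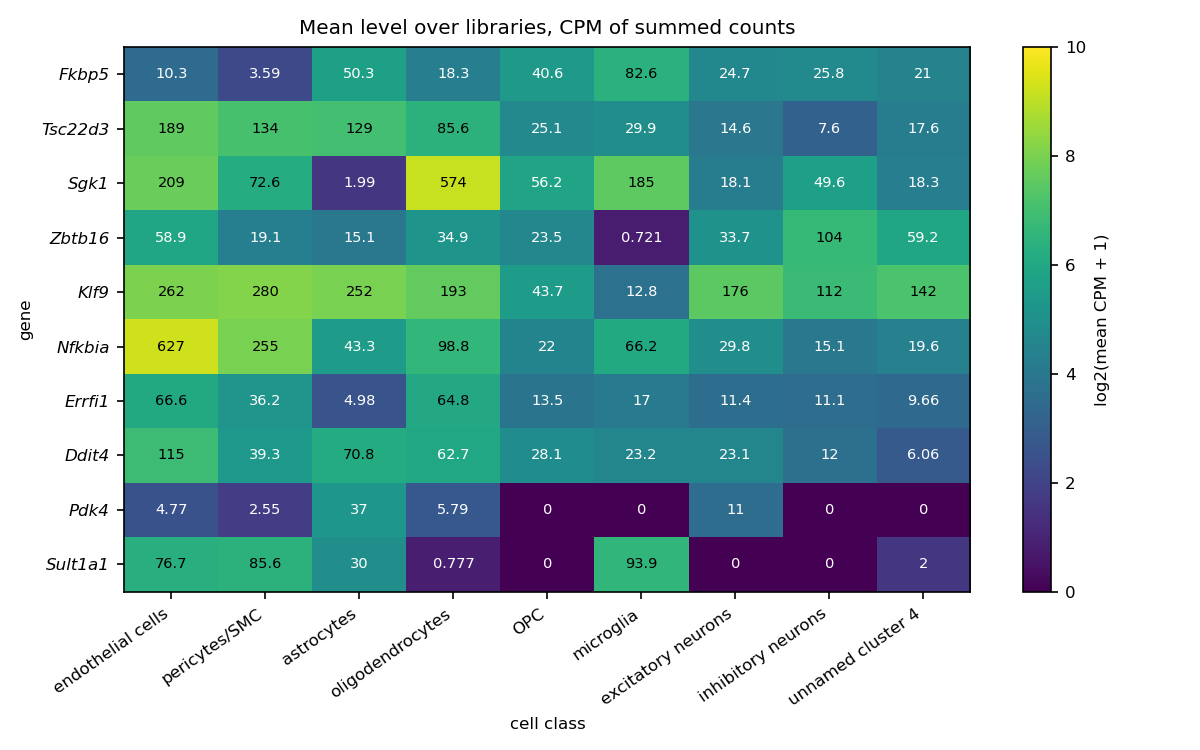
Mean CPM of each gene (rows) in each cell class (columns), over the mice with at least 10 cells of the class; colour is log2(mean CPM + 1) and the printed number is the mean. Over both arms together, endothelial cells hold the highest means of Nfkbia, Tsc22d3, Ddit4 and Errfi1, oligodendrocytes that of Sgk1 (574), microglia those of Fkbp5 (82.6) and Sult1a1 (93.9); the Fkbp5 mean of astrocytes rests on 2 UMIs in 1 shallow library.

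Fkbp5 was highest in microglia (82.6 ± 38.7 CPM, n = 6), and was followed by oligodendrocyte precursor cells (40.6 ± 21.3, n = 6) once the astrocyte mean is set aside, since 2 UMIs among the 6129 of BCD/Ket mouse 9946 alone gave 326 CPM there. Sult1a1, a sulfotransferase of phenolic compounds, was at 93.9 ± 29.3 CPM in microglia, 85.6 ± 57.9 in pericytes and 76.7 ± 68.6 in endothelial cells. No Sult1a1 UMI was seen among 1535286 UMIs of excitatory neurons, which allows up to 1.95 CPM, among 777339 of inhibitory neurons (up to 3.86 CPM), or among 680367 of oligodendrocyte precursor cells (up to 4.41 CPM). Zbtb16, a zinc finger repressor, was highest in inhibitory neurons (104 ± 82.3 CPM, n = 9), where the mice ranged from 0 to 222 CPM. Pdk4, the kinase that turns off pyruvate dehydrogenase, was the scarcest of the genes, with 90 UMIs in all kept barcodes. Its UMIs lay mainly in astrocytes (44 UMIs, median 16.1 CPM), and none was seen among 1665686 UMIs of microglia, which allows up to 1.80 CPM. These limits cover counting error only. The receptor gene Nr3c1 was at 343 ± 198 CPM in endothelial cells, its leading class, a mean raised by 3 UMIs in mouse 9970 (880 CPM), and Hsd11b1, which regenerates active hormone, led in astrocytes (102 ± 47.5).

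The question of the design was then what 6 weeks of corticosterone had done to its own target genes. Tsc22d3 and Ddit4 were called lower in endothelial cells of CORT mice. The call of Ddit4 was lost in 11 of 24 processing alternatives, and that of Tsc22d3 in 1 of 25. None of the 10 genes passed as higher in any class. Counts summed per mouse and class were compared by edgeR's quasi-likelihood test with ketamine as covariate and Benjamini-Hochberg adjustment over all genes tested in the class. All 10 genes were tested in at least 1 class, in 33 of the 90 combinations of a gene and a class, and 2 of the 33 passed an adjusted p of 0.05. Of all 34453 tests over the 9 classes, 0.0493% passed as lower and 0.00581% as higher. In endothelial cells 2 of the 8 genes tested passed as lower, beside 10 of 5614 genes (0.178%). The classes other than endothelial cells held 0 calls among their 25 tests of these genes, beside 0.0295% of genes called lower in astrocytes, 0.131% in pericytes (0.0874% higher), 0.038% in oligodendrocytes and 0% in microglia, both neuron classes and unnamed cluster 4. None of the 10 genes was tested in oligodendrocyte precursor cells (0.0324% of genes called lower there).

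Tsc22d3 in endothelial cells stood at 249 and 385 CPM in the BCD/Sal mice and at 367, 414 and 207 CPM in the BCD/Ket mice. In the CORT/Sal mice it was at 85.7 and 0 CPM, and in the CORT/Ket mice at 0, 83.6 and 100 CPM. The arms did not overlap: all 5 CORT mice lay below the lowest BCD mouse. Its zeros came from the 2 shallow libraries 9970 and 9967, and the 3 deeper CORT libraries, with 288646 to 396704 endothelial UMIs each, lay between 83.6 and 100 CPM. The fitted log2 difference (CORT minus BCD) was -1.90 ± 0.33 (SE, n = 5 against 5, adjusted p = 7.45e-06 by edgeR). Left without both shallow libraries, an alternative chosen after seeing the data, it was -1.78 (adjusted p = 0.000936). The call held in 24 of 25 alternatives and was lost at a mitochondrial limit of 5%, where 1810 genes were tested (-1.58, adjusted p = 0.360). Not all of these alternatives differed. A clustering resolution of 1.2 gave the same values as the reported fit, and at least 30 cells the same as leaving out mouse 9970.

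Ddit4 in endothelial cells was at 154 and 148 CPM in the BCD/Sal mice and 164, 141 and 85.7 CPM in the BCD/Ket mice. The CORT/Sal mice held 37.8 and 293 CPM and the CORT/Ket mice 0, 41.8 and 86.6 CPM. Its arms overlapped, through the 293 CPM of mouse 9970, which is 1 UMI, and through the 86.6 CPM of mouse 9971 (25 UMIs). The log2 difference was -1.33 ± 0.33 (SE, n = 5 against 5, edgeR adjusted p = 0.0361). This call rests on single libraries: it was lost without BCD/Sal 9901 (adjusted p = 0.520), BCD/Ket 9946 (0.0684), BCD/Ket 9949 (0.106), CORT/Sal 9969 (1.0), CORT/Sal 9970 (0.129) or CORT/Ket 9968 (1.0), with the difference between -1.06 and -1.35 in those fits, and without both shallow libraries (0.150). DESeq2 gave an adjusted p of 0.521.

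**Figure D2:**
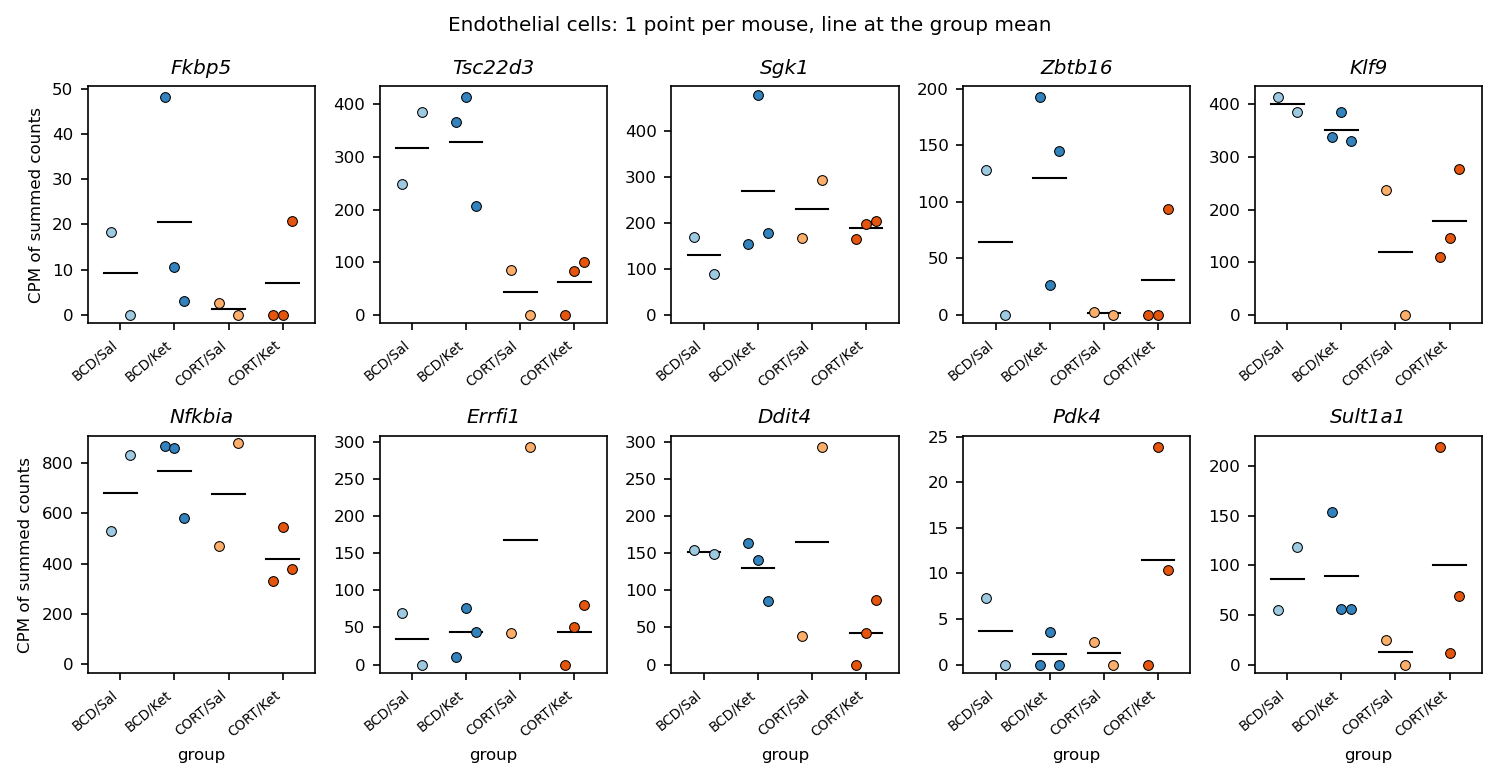
CPM of the 10 genes in endothelial cells (vertical axes, each on its own scale) by group (horizontal axis), with 1 point per mouse and a line at the group mean. For Tsc22d3 the 5 CORT mice (0 to 100 CPM) lie below the 5 BCD mice (207 to 414), and for Klf9 likewise (0 to 277 against 331 to 414). The zeros of both genes come from shallow libraries, 9970 and for Tsc22d3 also 9967. Single points at 293 CPM for Errfi1, Ddit4 and Sgk1 are 1 UMI in mouse 9970.

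Klf9 in endothelial cells was at 414 and 385 CPM in BCD/Sal and 338, 386 and 331 CPM in BCD/Ket mice, against 237 and 0 CPM in CORT/Sal and 110, 146 and 277 CPM in CORT/Ket mice. The 0 and the 110 CPM came from the shallow libraries 9970 and 9967, and the deeper CORT libraries held 237, 146 and 277 CPM. No CORT mouse reached the lowest BCD mouse, yet the log2 difference of -0.89 ± 0.33 did not pass the adjustment (unadjusted p = 0.00621, adjusted p = 0.689 by edgeR). Nfkbia lay at 528 to 869 CPM in BCD and 330 to 880 CPM in CORT mice, where 880 CPM is 3 UMIs in mouse 9970 and 330 CPM is 6 UMIs in mouse 9967. Without these 2 mice the CORT values were 378, 471 and 544 CPM, and the arms still overlapped between 528 and 544 CPM (log2 difference of all mice -0.75 ± 0.35, adjusted p = 0.995 by edgeR). Sult1a1 (-0.87 ± 0.38) and Sgk1 (-0.36 ± 0.31) had arms that overlapped, and Errfi1 showed almost no difference (0.02 ± 0.37, 3 tests with adjusted p of 0.995 to 0.998 by edgeR). The highest CORT value of Sult1a1, 220 CPM, is 4 of 18197 UMIs in the shallow library 9967, and its lowest BCD value was 55.0 CPM. Fkbp5 and Pdk4 were too scarce in endothelial cells to be tested, with 17 and 4 UMIs in BCD against 7 and 12 in CORT mice.

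Zbtb16 in endothelial cells divided the mice in another way. It was at 128 and 0 CPM in BCD/Sal, 193, 26.4 and 145 CPM in BCD/Ket, 2.52 and 0 CPM in CORT/Sal and 0, 0 and 93.5 CPM in CORT/Ket mice. The 4 mice above 90 CPM were 9901, 9946, 9986 and 9971, whose libraries had medians of 883 to 1590.5 UMIs per kept barcode, while the deeper libraries 9947, 9949, 9968 and 9969, with medians of 2299 to 2845 UMIs, lay between 0 and 26.4 CPM. The other 2 libraries, 9967 and 9970, had medians of 826 and 1453 UMIs and were at 0, where 3 UMIs equal 165 and 880 CPM. The same 4 mice were also the highest for Zbtb16 in oligodendrocytes, at 38.4 to 80.4 CPM against 0 to 12.6 CPM in the 4 deeper libraries. Mouse 9947 is deep only by the median of its whole library. It gave 33734 UMIs from 46 endothelial cells and 29398 UMIs from 29 oligodendrocytes, so its low values there say little. The part of library depth in the level was not tested on its own. The log2 difference between CORT and BCD was -1.92 ± 1.16 (edgeR adjusted p = 0.995). Without CORT/Ket mouse 9971, which holds 27 of the 28 Zbtb16 UMIs of CORT endothelial cells, the gene passed (adjusted p = 1.25e-10, with 1 UMI left in 4 CORT libraries against 119 UMIs in BCD), and with library depth as a further covariate, chosen after seeing the data, it passed as well (-1.46, adjusted p = 0.029).

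Outside the endothelium most values of the genes followed here pointed the same way without passing the test. Over all classes, 30 of the 33 tests of these genes gave a log2 difference below 0, beside 50.3% of all 34453 tests, and 17 of the 33 had an unadjusted p under 0.05, beside 1564 of the 34453. Tests of 1 mouse set share their mice across classes, so these 33 values are not independent. In endothelial cells the median of the 8 genes was -0.88, beside -0.03 over all genes tested, in oligodendrocytes -1.01 over 6 genes beside -0.02, in pericytes -1.14 over 3 beside 0.03, and in astrocytes -0.76 over 7 beside 0.03. In microglia the median of 5 genes was -0.11 beside 0.00. Each gene here had to pass a filter on low counts, which a gene high in only 1 arm can pass through that arm.

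**Figure D3:**
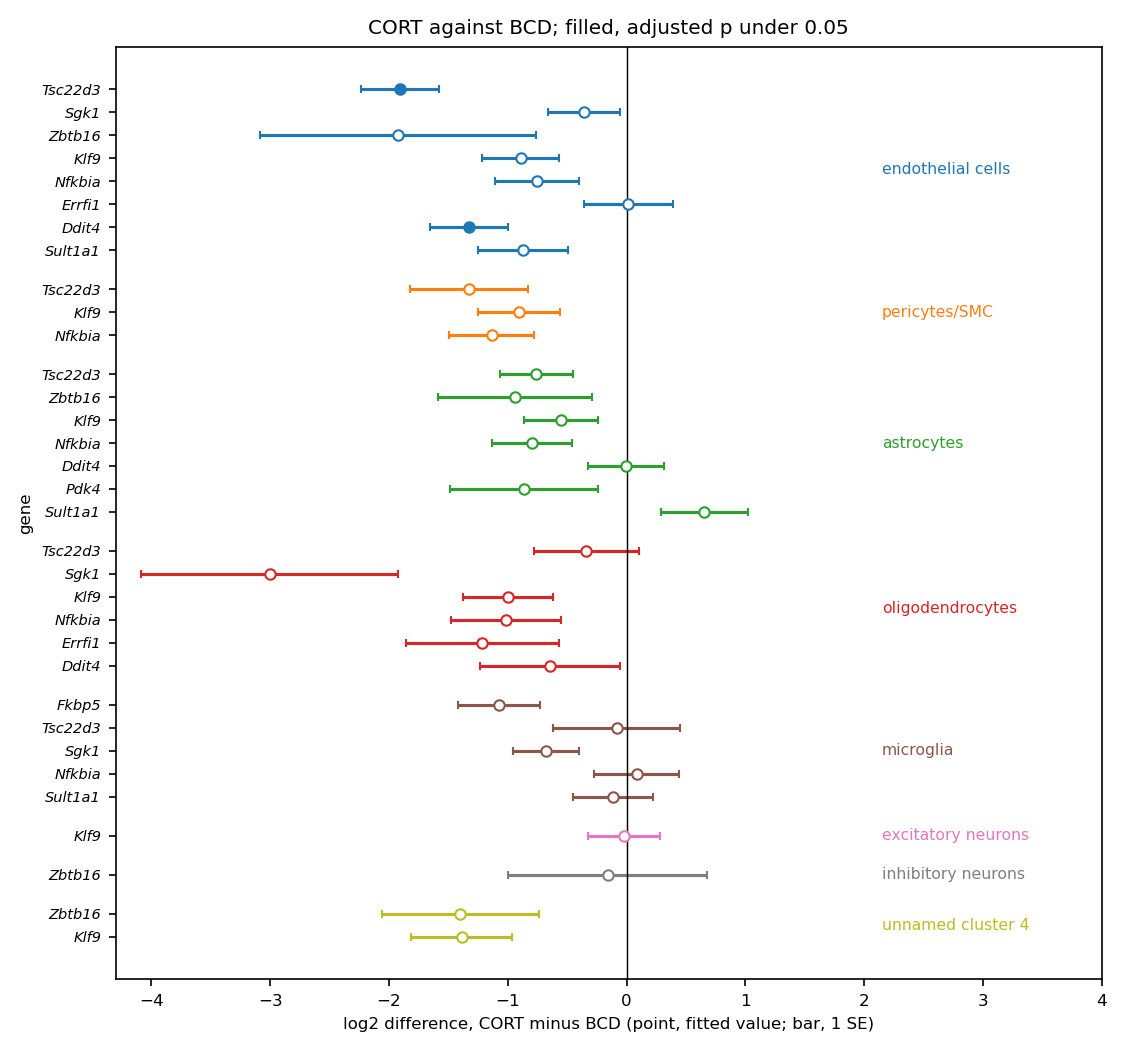
Log2 difference, CORT minus BCD (horizontal axis; point, edgeR's fitted value; bar, 1 SE), for each of the 33 combinations of gene and class tested (vertical axis, coloured by class); filled points have an adjusted p under 0.05. Filled points are Tsc22d3 (-1.90) and Ddit4 (-1.33) in endothelial cells, and 30 of the 33 points lie below 0.

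Klf9 was the gene whose arms stood apart in the most classes. In astrocytes it was at 306 CPM in the BCD/Sal mouse, 326 (2 UMIs), 315 and 238 CPM in BCD/Ket, 181 CPM in CORT/Sal and 183 and 218 CPM in CORT/Ket mice, with no overlap (log2 difference -0.55 ± 0.31, n = 3 against 4, edgeR adjusted p = 0.998). Pericytes gave 350 CPM in BCD/Sal, 309 (3 UMIs), 386 and 330 CPM in BCD/Ket, 199 CPM in CORT/Sal and 106 and 279 CPM in CORT/Ket mice (-0.91 ± 0.34, edgeR adjusted p = 0.798). Unnamed cluster 4, led by Cpne7, Miat and Mirg, also had all 3 CORT mice below all 4 BCD mice (-1.39 ± 0.43, edgeR adjusted p = 0.362). This cluster held excitatory neuron markers at 3386 to 6630 CPM, against 5159 to 9804 CPM in the class named excitatory neurons. In the class named excitatory neurons the 5 BCD mice lay at 146 to 232 CPM and the 5 CORT mice at 138 to 220 CPM. These ranges were nearly the same, though the 220 CPM is 2 of 9101 UMIs in mouse 9970. The log2 difference in the class named excitatory neurons was -0.02 ± 0.30. At a clustering resolution of 0.4 that class grew from 336 to 1285 cells, no cluster led by these genes was left, and the difference of Klf9 in it was -0.45 (edgeR adjusted p = 1.0).

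Every CORT mouse lay below every BCD mouse in 8 of the 33 tested combinations, beside 2.05% of all 34453 tests. In none did every CORT mouse lie above, beside 3.15% of all tests, and with 33 combinations none is near that share. Among all genes tested, the share with CORT below was 0.517% in endothelial cells (2 of 8 of these genes), 1.27% in astrocytes (1 of 7), 2.53% in pericytes (2 of 3), 4.14% in microglia (2 of 5) and 3.45% in cluster 4 (1 of 2). It was 2.02% in oligodendrocytes, 0.337% in excitatory and 0.424% in inhibitory neurons, where none of these genes separated. The endothelial separations, of Tsc22d3 and Klf9, include zeros of shallow CORT libraries.

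The pericyte class also carried endothelial markers, at 8081 to 13400 CPM in BCD and 8879 to 11530 CPM in CORT mice beside 15537 to 27934 CPM of its own, and the part of endothelial RNA in its values was not tested. Pericytes held Nfkbia at 282 CPM in the BCD/Sal mouse and 412 (4 UMIs), 467 and 172 CPM in BCD/Ket mice, against 120 CPM in CORT/Sal and 163 and 168 CPM in CORT/Ket mice. The arms just failed to touch, at 172 and 168 CPM (log2 difference -1.14 ± 0.36, unadjusted p = 0.00267, adjusted p = 0.382 by edgeR). Tsc22d3 in pericytes lay at 43.1 to 309 CPM in BCD and 39.9 to 97.7 CPM in CORT mice (-1.32 ± 0.50, edgeR adjusted p = 0.798). In astrocytes it was at 84.9 CPM in the BCD/Sal mouse and 163 (1 UMI), 243 and 143 CPM in BCD/Ket mice. It was at 82.4 CPM in CORT/Sal and 107 and 79.7 CPM in CORT/Ket mice, so that the arms overlapped by the BCD/Sal mouse alone (-0.76 ± 0.31, edgeR adjusted p = 0.998). Sult1a1 in astrocytes was one of the 3 values above 0 (0.65 ± 0.37, edgeR adjusted p = 0.998).

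Fkbp5 in microglia was at 100 CPM in the BCD/Sal mouse and at 143 and 87.2 CPM in the BCD/Ket mice. It stood at 35.4 CPM in the CORT/Sal mouse and at 47.4 and 82.2 CPM in the CORT/Ket mice, below every BCD mouse. The log2 difference was -1.07 ± 0.34 (n = 3 against 3, unadjusted p = 0.00349, adjusted p = 0.833 by edgeR). Sgk1 in microglia separated as well, with 234, 208 and 240 CPM in BCD mice against 145, 104 and 177 CPM in CORT mice (-0.67 ± 0.28, edgeR adjusted p = 0.996). Tsc22d3 (-0.08 ± 0.54) and Nfkbia (0.09 ± 0.36) in the same microglia differed by less than 1 SE.

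Sgk1 in oligodendrocytes had the largest SD over mice of the 10 genes in the 9 classes. It was at 404 and 1157 CPM in BCD/Sal, 1858, 623 and 230 CPM in BCD/Ket, 68.4 CPM in CORT/Sal and 25 and 230 CPM in CORT/Ket mice. BCD/Ket mouse 9986 and CORT/Ket mouse 9971 met at 230 CPM, and the other BCD mice all lay above the other CORT mice. The log2 difference was -3.01 ± 1.09 (n = 3 against 5, unadjusted p = 0.0370, adjusted p = 0.598 by edgeR). Among ketamine-treated mice alone it was -2.79 ± 1.47 (edgeR adjusted p = 0.999), and it passed only when BCD/Ket mouse 9986, the one that met the CORT mice, was dropped (-3.27, edgeR adjusted p = 7.8e-05). Klf9 and Nfkbia in oligodendrocytes gave -0.999 ± 0.38 and -1.01 ± 0.46, with edgeR adjusted p of 0.568 and 0.598.

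**Figure D4:**
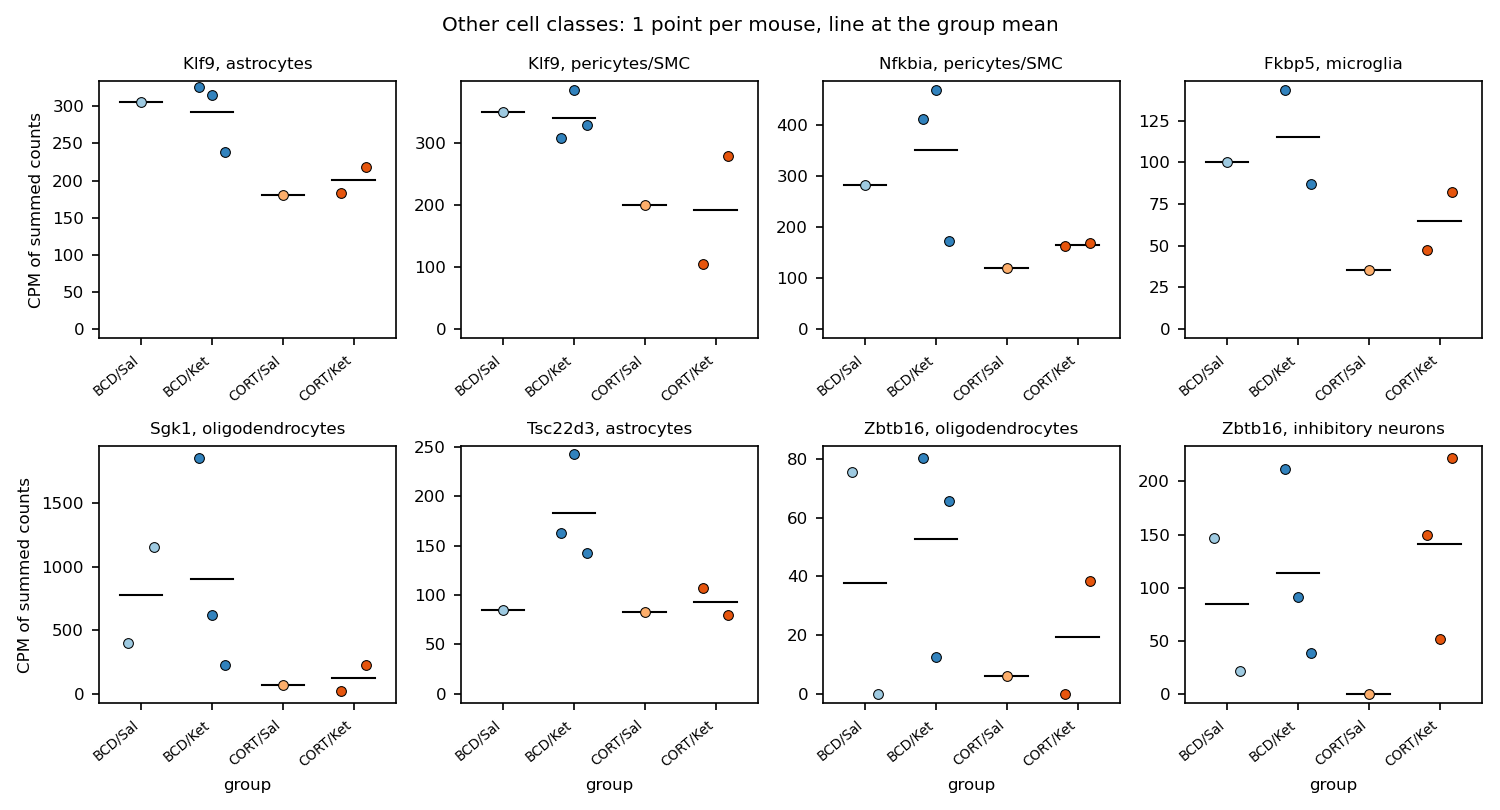
CPM (vertical axes, each on its own scale) by group (horizontal axis) for 8 combinations of gene and class outside the endothelium, with 1 point per mouse and a line at the group mean. CORT mice lie below BCD mice for Klf9 in astrocytes and pericytes, Nfkbia in pericytes and Fkbp5 in microglia; for Sgk1 in oligodendrocytes the arms meet at 230 CPM, and for Zbtb16 in inhibitory neurons they overlap throughout.

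Whether ketamine altered this difference was examined by splitting the mice. Among ketamine-treated mice alone, endothelial Tsc22d3 was lower with CORT (-1.96 ± 0.43, n = 3 against 3, edgeR adjusted p = 0.00856), beside 0.0631% of 6342 genes called lower and 0.0158% called higher there. In the astrocytes of the same mice 0.0128% of genes were called lower, none of them among the 10. Among saline-treated mice 0.0946% of genes were called lower and 0.0158% higher in endothelial cells. Tsc22d3 there gave -1.77 ± 0.60 (n = 2 against 2), which did not pass (unadjusted p = 0.00329, adjusted p = 0.420 by edgeR). CORT/Sal mouse 9970 had 3411 endothelial UMIs and none of Tsc22d3, so this estimate and the interaction below lean on CORT/Sal mouse 9969. Leaving out 1 mouse at a time gave -8.90 to -1.62. The difference of the CORT effects with and without ketamine was -0.19 ± 0.73 (edgeR adjusted p = 0.996), so the data do not separate the 2 estimates, and with 2 mice a side the interval is wide. The call among ketamine-treated mice was lost without BCD/Ket 9949 (adjusted p = 0.142), CORT/Ket 9968 (0.286) or CORT/Ket 9971 (0.275), with DESeq2 (1.0) and in a fit of those 6 libraries alone (0.0602), while the difference stayed between -2.23 and -1.61 over all 22 alternatives. Ddit4 gave -1.09 ± 0.41 with ketamine and -1.84 ± 0.60 with saline, and neither passed (edgeR adjusted p = 1.0 and 0.373). Leaving out 1 mouse at a time gave -1.90 to -0.583 for Ddit4 with saline. Endothelial cells and excitatory neurons were the classes with at least 2 mice in every group. None of the 10 interaction tests in them passed, beside 0% of the 10259 over all genes.

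Ketamine itself, 24 h after the injection, called none of the 10 genes in any class (0 of 33 tests by edgeR, 1 of them at an unadjusted p under 0.05 beside 525 of 34453 over all genes, and 0 by DESeq2), beside 0.0029% of all 34453 tests called lower and 0% called higher (0.0437% lower in pericytes). The lowest unadjusted p was that of endothelial Sgk1 (log2 difference, Ket minus Sal, 0.65 ± 0.33, edgeR adjusted p = 0.999). The level of Sgk1 there was 478 CPM in BCD/Ket mouse 9949 and at 88.9 to 293 CPM in the other 9 mice. Endothelial Tsc22d3 gave 0.17 ± 0.33 and Ddit4 0.03 ± 0.33 for ketamine, each less than 1 SE from 0.

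A list of 20 further glucocorticoid targets was read in the same fits. In endothelial cells 14 of the 20 were tested, 12 had a log2 difference below 0, beside 53.9% of the 5614 genes tested, and 2 passed, Per1 and Fam107a, both lower, beside 0.178% of those genes. Per1, a clock gene with a known GRE, gave -1.91 ± 0.47 (edgeR adjusted p = 0.0361), with medians of 51.3 CPM in BCD and 17.3 CPM in CORT mice and 67 against 13 UMIs. Fam107a, an actin-binding stress gene, gave -1.41 ± 0.35 (edgeR adjusted p = 0.0361), with 118 ± 34.8 CPM in BCD and 36.2 ± 25.7 CPM in CORT mice. Both calls were lost without any one of BCD/Sal 9901, BCD/Ket 9946, BCD/Ket 9949, CORT/Sal 9969, CORT/Sal 9970 or CORT/Ket 9968, with edgeR adjusted p of 0.0732 to 1.0 for Per1 and 0.0609 to 1.0 for Fam107a, and Fam107a also without BCD/Ket 9986 (0.0676). Leaving out 1 mouse at a time kept the difference between -2.19 and -1.40 for Per1 and between -1.69 and -1.05 for Fam107a. The next smallest p in endothelial cells was that of the metallothionein Mt2 (-0.75 ± 0.30, edgeR adjusted p = 0.843). Over all classes it was that of astrocyte Angptl4, which was higher with CORT (0.94 ± 0.35, edgeR adjusted p = 0.998). Astrocyte Per1 followed and was lower (-0.89 ± 0.34, edgeR adjusted p = 0.998). Over all classes, 26 of 48 tests of these 20 genes (54.2%) were below 0, beside 50.3% of all 34453 tests, and the same 2 passed. The 26 include the 12 endothelial ones, and outside the endothelium more of the tests lay above 0 than below. The genes followed first had 30 of 33 tests below 0, a lean that the further targets did not share outside the endothelium. For ketamine none of the 48 tests of these genes passed by edgeR, nor had any an unadjusted p under 0.05, and the 3 with the smallest p were Cebpd in pericytes (0.86 ± 0.51), Mt1 in oligodendrocytes (-0.44 ± 0.28) and Per1 in cluster 4 (0.81 ± 0.55). Endothelial Nr3c1 gave -0.17 ± 0.32 for CORT against BCD, less than 1 SE from 0.

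The other 6 genes called lower in endothelial cells were Dbp (-3.10 ± 0.42), Nr1d1 (-2.63 ± 0.39), Nr1d2 (-2.26 ± 0.37), Hlf (-2.13 ± 0.36) and Tef (-1.61 ± 0.35), which belong to the circadian clock, and Pik3ip1 (-1.29 ± 0.33), all by edgeR. Pericytes had 3 genes called lower, which were Dbp (-2.67 ± 0.44), Hlf (-1.93 ± 0.40) and Nr1d1 (-1.76 ± 0.39). Whether the daily phase of the mice differed between the arms was not tested, since no hour of collection is given. Genes of the dissociation response, such as Fos and Jun, summed over 16 genes to 504 to 14309 CPM in BCD and 495 to 12020 CPM in CORT endothelial cells. Tsc22d3 and Ddit4 stayed past the threshold with that sum as covariate. The part of dissociation in their levels was not tested on its own.

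Over all kept barcodes of a mouse, with mitochondrial UMIs left out, Klf9 lay at 212 to 271 CPM in BCD and 89.4 to 163 CPM in CORT mice, without overlap. The arms of the other genes followed here overlapped, and the share of all genes without overlap was not computed. Mouse 9970, most of whose kept barcodes fell in unnamed clusters, is among these CORT mice. Tsc22d3 lay at 58.3 to 227 CPM in BCD and 22.6 to 73.6 CPM in CORT mice. In the barcodes above the mitochondrial limit the arms overlapped for both genes, at 150 to 186 against 115 to 381 CPM for Klf9 and 36.7 to 99 against 0 to 51.2 CPM for Tsc22d3. The 381 and the 0 CPM are both from mouse 9970, which had 71 such barcodes with 20995 UMIs and 8 UMIs of Klf9. The other 4 CORT mice held Klf9 at 115 to 149 CPM, and the lowest BCD mouse was at 149.7 CPM, so the arms nearly touched. Mouse 9970 was set aside here after the data were seen. In these barcodes, too, the share of all genes without overlap was not computed. A lower level over all barcodes can come from fewer cells of a class or from less RNA per cell, which cannot be told apart in such sums.

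**Figure D5:**
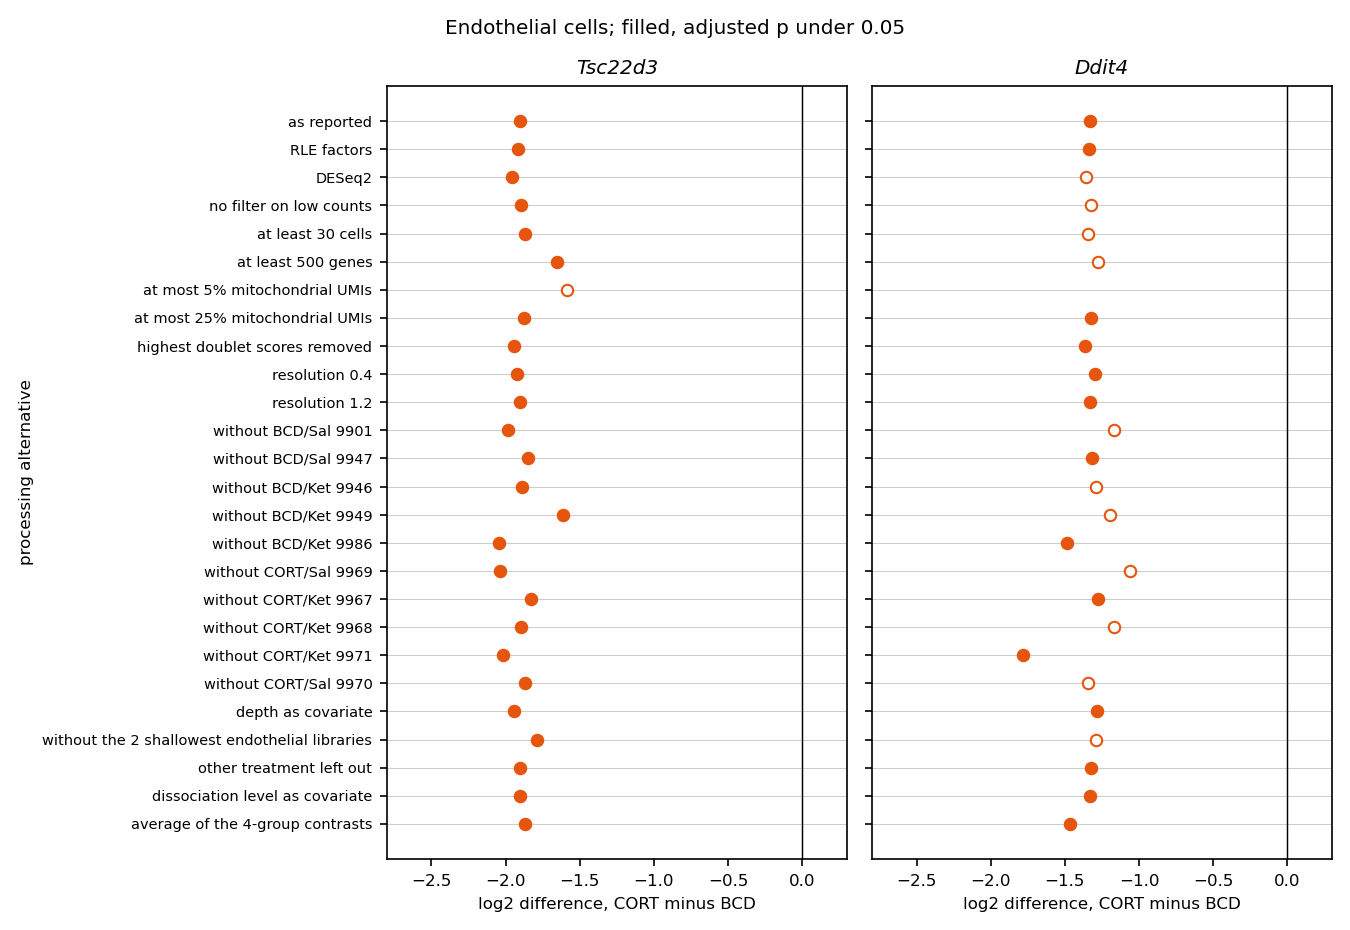
Log2 difference, CORT minus BCD (horizontal axis), of Tsc22d3 and Ddit4 in endothelial cells under each processing alternative (vertical axis); filled points have an adjusted p under 0.05. Tsc22d3 stays between -2.04 and -1.58 with an open point at the 5% mitochondrial limit, while Ddit4 stays between -1.78 and -1.06 and is open in 11 of 24 alternatives.

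Across 64 sums of a class in a mouse, from 9 classes, the 3 genes whose log2(CPM + 10) followed each gene most closely (Pearson's r, genes with a mean of at least 10 CPM) were read as a description, with no test, since the points share libraries, depth and classes. Fkbp5 was followed by Fam102b (0.69), Tbc1d9 (0.66) and Tanc2 (0.64), and with class means subtracted by Gnl3l (0.56), Ermp1 (0.55) and Zzz3 (0.55). Tsc22d3 was followed by Parp4 (0.82), Nfkbia (0.81) and Ctnna1 (0.80), and with class means subtracted by Eif2s2 (0.56), Eif3b (0.53) and Fam45a (0.51). Sgk1 was followed by Chn2 (0.79), Atp1b3 (0.75) and Rpsa (0.75), and with class means subtracted by Arsb (0.57), Arl4d (0.53) and Piga (0.51). Zbtb16 was followed by Tcf4 (0.64), Rif1 (0.62) and Prrc2c (0.61), and with class means subtracted by Ubxn2a (0.65), 5930430L01Rik (0.62) and Srgap3 (0.61). Klf9 was followed by Fam171a1 (0.78), Sptbn1 (0.75) and Arap2 (0.74), and with class means subtracted by Skp1a (0.64), Nr1d2 (0.62) and Eif2s2 (0.60). Nfkbia was followed by Myl12a (0.89), Vamp5 (0.88) and Afap1l1 (0.87), and with class means subtracted by Zfp180 (0.56), Rpl31 (0.55) and Api5 (0.53). Errfi1 was followed by Mob3b (0.70), Prr5l (0.69) and Mtmr2 (0.64), and with class means subtracted by Ifrd1 (0.61), Gab2 (0.60) and Brca2 (0.51). Ddit4 was followed by Tsc22d3 (0.66), Add3 (0.63) and Cdkn1b (0.62), and with class means subtracted by Zfp513 (0.45), Edn1 (0.44) and Il18 (0.44). Pdk4 was followed by Gstm1 (0.73), Pxmp2 (0.70) and 2310022B05Rik (0.68), and with class means subtracted by Zfp36 (0.49), BC028528 (0.43) and Dexi (0.43). Sult1a1 was followed by Trim12a (0.95), Cyba (0.91) and Fhod1 (0.90), and with class means subtracted by Galnt15 (0.48), Mterf1a (0.47) and Slc52a3 (0.45). With each class's mean subtracted, the highest r of each gene lay between 0.45 and 0.65, which was lower than as measured for 9 of the 10 genes and not for Zbtb16.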

How the data were processed

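Droplet single-cell libraries of the BLA from 10 mice were used, while prefrontal cortex libraries were not analysed here. The deposited matrices hold UMI counts per gene and barcode, which the authors made with Cell Ranger (3.0.2 in the file headers), and the submitters' processing notes name mm9 and Seurat 3.1.1. The annotation was not given in the sources used here.

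Barcodes with at most 12.5% mitochondrial UMIs and at least 200 genes were kept, clustered with scanpy 1.11.5 (2000 variable genes, 30 components, 20 neighbours, Leiden resolution 0.8) and named from marker genes. The 85 highest doublet scores (1.02% of kept barcodes) were removed in an alternative only. Counts were summed per mouse and class with at least 10 cells and tested with edgeR 4.0.16 (quasi-likelihood, TMM factors, filterByExpr, R 4.3.3), with Benjamini-Hochberg adjustment over all genes of a class and a threshold of 0.05. DESeq2 1.42.0 was an alternative. Simple contrasts came from a fit of the 4 groups. Scripts were tested on simulated data. Levels of neighbouring classes were compared by exact paired sign-flip permutation tests. CPM were not corrected for gene length. Levels were compared between classes, and between genes only to name the scarcest gene and the one with the largest SD. Libraries are 1 per mouse, so mice are the replicates of the edgeR tests. The spread in those tests is estimated with information shared over the genes of a class. The p-values and SE of a gene therefore do not measure its own spread between mice alone.

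The named genes were the 10 genes, the further targets past the threshold and the 3 with the smallest p, and for each gene the 3 most alike. The other genes called in endothelial cells, and those called lower in pericytes, were named after their values were seen. The genes and lists were chosen with earlier results of these data known. The alternatives with library depth as covariate and without the 2 shallowest endothelial libraries were chosen after seeing the data. Intervals and limits cover counting error only.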

Additional observations from a re-analysis of the deposited data

Results flagged for a closer look

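Within the CORT or the BCD mice, 38 sets of values were tested for a mouse that stood apart (Dixon's ratio, 95% critical value), and 4 did so, beside about 1 in 20 by chance. The values of Errfi1 in endothelial cells and Pdk4 in astrocytes rest on 1 UMI each: CORT/Sal mouse 9970 held Errfi1 at 293.169 CPM (1 of 3411 UMIs), and BCD/Ket mouse 9946 held Pdk4 at 163.159 CPM (1 of 6129 UMIs). Sgk1 in endothelial cells was at 477.626 CPM in BCD/Ket mouse 9949, from 271 of 567390 UMIs. Zbtb16 in endothelial cells was at 93.54 CPM in CORT/Ket mouse 9971, from 27 of 288646 UMIs. The causes were not tested.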

How the results depend on the processing

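Of 780 alternatives over 39 results of single genes, 688 kept direction and side of the threshold, 45 lost the call, 2 gained it and 45 turned direction. Some alternatives gave the same fit of a class, so they are not all separate checks. The 10 genes gave 2 calls for CORT against BCD, 1 with DESeq2, no filter on low counts, at least 30 cells, at least 500 genes or without the 2 shallowest endothelial libraries, 0 at 5% mitochondrial UMIs, and 1 to 3 when leaving out 1 mouse. CORT/Ket against BCD/Ket gave 1 call, 0 with DESeq2, at 5% mitochondrial UMIs or with only those groups, and 0 to 2 without 1 mouse. CORT/Sal against BCD/Sal and CORT/Ket against CORT/Sal gave 0, and 0 to 1 without 1 mouse; those calls were of Zbtb16. Calls of the other contrasts stayed at 0. The further targets gave 2 endothelial calls, 1 with no filter, 0 with DESeq2, at least 30 cells, at least 500 genes, 5% or 25% mitochondrial UMIs, without the 2 shallowest libraries or as the average of the 4-group contrasts, and 0 to 2 without 1 mouse. All endothelial genes gave 10 calls, 5 with DESeq2, 16 with no filter, 6 with at least 30 cells or without the 2 shallowest libraries, 0 at 5% mitochondrial UMIs, 19 with depth and 21 with dissociation as covariate, and 6 to 23 without 1 mouse. The leading class was the same for 6 of 10 genes at 5% mitochondrial UMIs, and the most alike gene for 5 of 10 with a pseudocount of 1.

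Results that turned direction passed the threshold in none of these fits. Astrocyte Ddit4 (-0.003) gave 0.017 with RLE factors, 0.031 with DESeq2, 0.008 with no filter, 0.027 with at least 500 genes, 0.006 at 25% mitochondrial UMIs, 0.005 without doublets, 0.010 at either resolution, 0.488 with dissociation as covariate and 0.011 as the average. Endothelial Errfi1 (0.016) gave -0.007 with at least 30 cells, -0.068 with depth, -0.003 without the ketamine term, -0.026 with dissociation, -0.078 as the average and -0.000 with no filter. Excitatory Klf9 gave 0.139 with at least 30 cells and 0.001 as the average, inhibitory Zbtb16 0.239 at 25% mitochondrial UMIs, microglial Tsc22d3 0.935 with dissociation and 0.117 as the average, microglial Sult1a1 0.001 at 5% mitochondrial UMIs, 0.082 with dissociation and 0.326 as the average, and oligodendrocyte Ddit4 0.113 as the average. Leaving out 1 mouse at a time gave Ddit4 in astrocytes -0.344 to 0.619, Errfi1 in endothelial cells -0.278 to 0.383, Klf9 in excitatory neurons -0.142 to 0.136, Nfkbia in microglia -0.054 to 0.378, Sgk1 in endothelial cells -0.596 to 0.237, Sult1a1 in microglia 0.025 to 0.082, Tsc22d3 in microglia -0.346 to 0.368, Zbtb16 in inhibitory neurons -0.592 to 0.406. The causes were not tested.

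No paired analysis was possible because no mouse is in 2 of the groups compared, and the replicate numbers are mouse numbers. Depth limits the endothelial values of mice 9967 and 9970 most.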
